A study of Mus musculus with 6 samples.

Results

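The 162 species described here are known piRNAs of mouse testis whose abundance stayed near its control level in every library after scrotal heating. They were chosen by their measured values. A species entered the set when its identifier began with mmu_piR_, its mean over the controls was at least 50 and under 500 RPM (reads on the species for every 1000000 reads listed in the library), and each of its 6 values lay between that mean divided by 1.5 and that mean times 1.5. Of 659239 listed small RNA species, 24845 carry mmu_piR_ identifiers, 2219 of these lie in the abundance range and 162 met the rule. The same rule applied to the 513 uniq_ species of that range, whose identifiers the files do not define, found 0. Because the rule used both groups, the steadiness of the set is a description and not a finding.

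The libraries came from testes of C57BL/6 mice, 12 animals in all, whose scrotum was placed for 15 minutes in water at 36 °C (control, 3 libraries) or 43 °C (heat stress, 3 libraries). Tissue was collected 24 hours later. Neither the age of the animals nor how many mice went into a library is stated in the labels, and p-values therefore reflect how much these libraries varied, which may be technical. The files list small RNA species only, with no gene or cell marker, so the labelled tissue could not be checked against markers.

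piRNAs are small RNAs carried by PIWI proteins, which in mouse testis are MILI, MIWI and MIWI2. They are cut from long single-stranded precursors, guide the PIWI proteins to matching transcripts, and are best known for silencing transposons in the germ line. In the adult testis most belong to the pachytene class, which is made in spermatocytes and persists in spermatids, and their methylated 3′ ends protect them from degradation. Each species is identified here by its number only. In bulk tissue, fewer cells that hold a piRNA and fewer copies per cell cannot be told apart.

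Reads on listed species numbered 2573473 to 4255001 in the controls, 2260175 and 2599530 in heat stress replicates 1 and 2, and 582789 in heat stress replicate 3. One read was worth 0.235 to 0.442 RPM in the first 5 of these libraries and 1.72 RPM in heat stress replicate 3. mmu_piR_ species held 67.2% to 67.3% of the reads in the controls and 87.5%, 77.2% and 92.6% in heat stress replicates 1, 2 and 3. This shift of the whole library bears on every RPM value below, and its part in the results was examined only through the scalings given further on.

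Within the abundance range, few known piRNAs kept their control level after heat, while most kept it among the controls. All 3 controls lay within 1.5-fold of their mean at 1989 of 2219 species, or 89.6%. All 3 heat stress libraries lay within the same limits at 174 species, or 7.84%, and all 6 libraries at 162 species, or 7.30%. If reads had scattered around the control mean by counting error alone (Poisson probabilities at each library's depth), 2199 species, or 99.1%, would have stayed within the limits in all 6 libraries. Nearly all of the expected loss came from heat stress replicate 3, where 2199 species were expected and 596 were observed. In heat stress replicate 1, 434 species were observed and in replicate 2 1107, against 2219 expected in each. Control replicates 1, 2 and 3 held 2106, 2107 and 2087 species within the limits, also against 2219 expected in each. Leaving the limits was thus rare in the controls and common in the heat stress libraries. Reads made by PCR are not independent molecules, so these expectations cover counting error only.

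**Figure D1:**
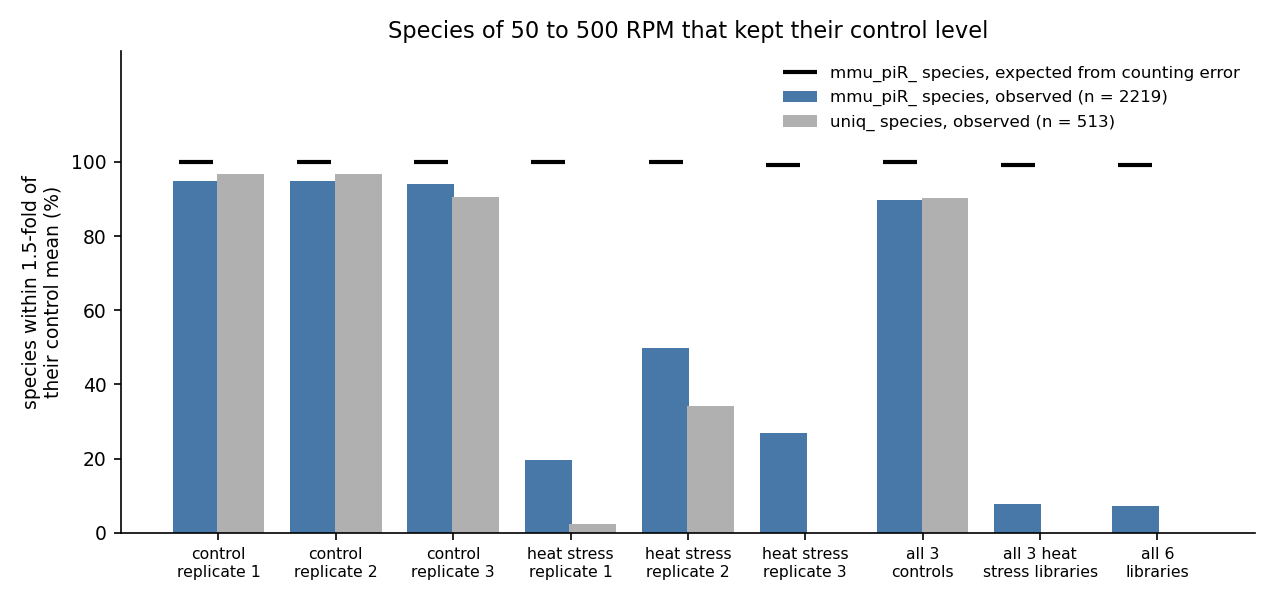
Percentage of species with a control mean of 50 to under 500 RPM that lay within 1.5-fold of that mean, in each library and in groups of libraries, for mmu_piR_ species (blue bars) and uniq_ species (grey bars). Black dashes are the percentage expected from counting error for mmu_piR_ species; the bars of the controls reach 94.1% to 96.9% for single libraries except uniq_ species in control replicate 3 (90.4%), and those of all 6 libraries reach 7.30% and 0%.

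A fairer reading of the controls sets each library against controls that do not include it. Measured against the mean of 2 other controls, the share of the 2219 species within 1.5-fold was 90.2%, 90.5% and 86.0% in control replicates 1, 2 and 3. It was 19.7%, 49.7% and 26.5% in heat stress replicates 1, 2 and 3, averaged over the 3 pairs of controls. On the deposited RPM scale, no heat stress library came near a control. Of the other scalings, described below, only that to mmu_piR_ reads was tried for this share, so its value under TMM is not known. The means were 88.9% ± 2.49 (SD, n = 3) in control and 32.0% ± 15.7 (SD, n = 3) in heat stress, a difference of 56.9 percentage points. A two-sided exact permutation test on these finished shares returned p = 0.1, the floor for 3 against 3 libraries, so this design cannot pass 0.05. The true controls stayed the reference when labels were exchanged, and they also defined the range. The shares of the controls depend on one another as well, so the p-value is only a description.

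The species that left the limits did so in both directions, on the deposited RPM scale more often downward. Species below the lower limit numbered 1350, 662 and 1099 in heat stress replicates 1, 2 and 3, and those above the upper limit 435, 450 and 524. Below the limit in all 3 heat stress libraries were 541 species, and above it in all 3 were 252. A further 418 species were outside in 1 library only, of which 259 missed in heat stress replicate 1, 122 in replicate 3, 30 in replicate 2 and 7 in a control. The median ratio to the control mean over the 2219 species was 0.48, 0.91 and 0.68 in heat stress replicates 1, 2 and 3, against 0.98 to 1.01 in the controls. On this scale heat stress replicate 2 was thus the closest to the controls and replicate 1 the farthest. After TMM scaling, described below, these medians were 1.07, 1.12 and 0.88, so the downward excess did not hold on that scale. They stayed below 1 with median-of-ratios factors (0.90, 0.89 and 0.78) and when scaled to mmu_piR_ reads (0.37, 0.79 and 0.49). With factors from species chosen without each library, also described below, they were 0.73, 0.82 and 0.66. On the deposited scale the medians among the uniq_ species of the range were 0.15, 0.55 and 0.14. No uniq_ species lay within the limits in heat stress replicate 3.

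Stable species occurred at each level of abundance within the range. Of 1146 species between 50 and 100 RPM 75 were stable, or 6.54%, with 98.3% expected from counting error. Of 650 species between 100 and 200 RPM 53 were stable, or 8.15%, and of 423 species between 200 and 500 RPM 34, or 8.04%, with 99.9% and 100% expected. Above the range, 5 of 180 mmu_piR_ species with a control mean of at least 500 RPM lay within the limits, or 2.78%. The lowest control mean among the stable species was 50.9 RPM, the median 103 RPM and the highest 464 RPM, close to the median of 96.0 RPM over the range. At the edges of the range, mmu_piR_010299 (control mean 49.7 RPM) and mmu_piR_027240 (523 RPM) also lay within the limits in all libraries but were too low and too high to enter.

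**Figure D2:**
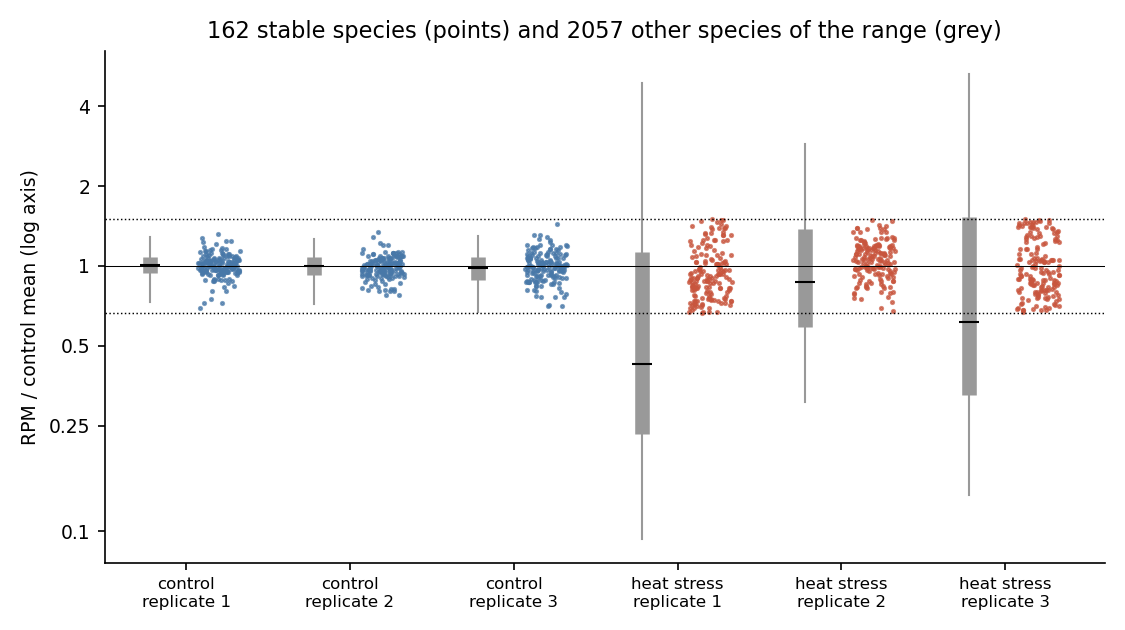
Ratio of each value to the species' control mean (log axis) by library, for the 162 stable species (points, blue in control and red in heat stress) and for the other 2057 species of the range (grey: thick bar from the lower to the upper quartile, thin line from percentile 5 to percentile 95, dash at the median). Dotted lines are the limits of the rule; red points fill the space between them in heat stress replicates 1 and 3 and crowd nearer to 1 in replicate 2.

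Inside the limits the stable species were not uniform. In the controls their interquartile range of ratios was 0.96 to 1.06, 0.94 to 1.05 and 0.92 to 1.07. In heat stress replicates 1, 2 and 3 it was 0.80 to 1.09, 0.95 to 1.17 and 0.82 to 1.23. The largest deviation of a species lay in a heat stress library for 143 of the 162, namely 63 in replicate 3, 51 in replicate 1 and 29 in replicate 2, and in a control for 19. The control mean is made of these same controls, which holds their ratios nearer to 1. Heat stress replicate 3 also had a median of only 61 reads per stable species, against 217 to 446.5 in the other libraries. Nothing is therefore read from this difference between the groups. The median species strayed 1.34-fold in its worst library, 46 species stayed between 80% and 125% of their control mean throughout, and 3 stayed within 1.1-fold. The heat stress mean was above the control mean for 81 species and below it for 81.

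The steadiest of the set was mmu_piR_014621, with 424, 390.1 and 408 RPM in control replicates 1, 2 and 3 and 393, 425 and 429 RPM in heat stress replicates 1, 2 and 3. No library deviated from its control mean by more than 1.05-fold, and the groups overlapped. mmu_piR_010003 is one of the least abundant of the set and nearly as steady. It stood at 58.3, 65.1 and 58.3 RPM in control and at 60.2, 57.7 and 56.6 RPM in heat stress, the last of these from 33 reads. mmu_piR_031504 had 219, 204 and 199.7 RPM in the controls and 227, 193 and 201 RPM in heat stress, so its extremes both came from heat stress libraries. mmu_piR_016234 had 105, 98.2 and 102 RPM in the controls and 105, 113 and 108 RPM in heat stress, where each value was level with or above the highest control. mmu_piR_015959 (control mean 297 ± 28.4 RPM, heat stress mean 283 ± 18.0 RPM, SD, n = 3 each) and mmu_piR_010276 (121 ± 8.47 and 117 ± 9.21 RPM) completed the 6 species with the smallest deviations, which ranged from 1.05-fold to 1.11-fold.

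The most abundant stable species were less even than these. mmu_piR_036185 had 465, 499 and 427 RPM in the controls and 545, 397 and 347 RPM in heat stress, so that heat stress held both its highest and its lowest values. mmu_piR_017089 had 311, 384 and 644 RPM in the controls and 474, 484 and 379 RPM in heat stress. Its widest deviation, 1.44-fold, lay in control replicate 3, and the 3 heat stress values lay inside the control range. mmu_piR_011551 had 405, 339.8 and 571 RPM in the controls and 295, 425 and 633 RPM in heat stress, with its lowest and highest values both among the heated libraries. Its group means of 439 ± 119 and 451 ± 171 RPM (SD, n = 3) were alike although the single values were not. mmu_piR_010252 and mmu_piR_029623 were tight in control, at 444 ± 9.91 and 424 ± 5.17 RPM, and wider in heat stress, at 437 ± 55.4 and 384 ± 76.2 RPM. mmu_piR_021073 went from 413 ± 34.6 RPM among controls to 511 ± 96.6 RPM after heat stress, with 411 RPM in heat stress replicate 2 inside the control range.

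**Figure D3:**
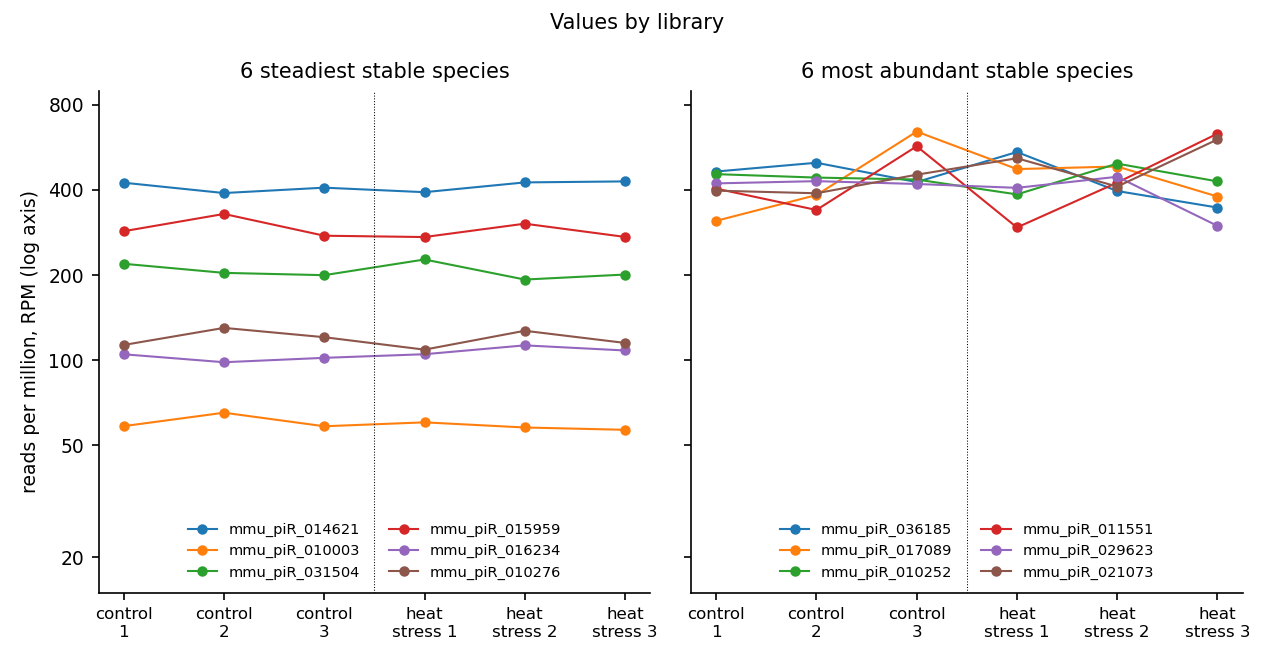
RPM (log axis) in each of the 6 libraries for the 6 stable species with the smallest deviations (left) and the 6 with the highest control means (right); lines only join the values of a species. The lines on the left stay nearly level, while on the right mmu_piR_011551 spans 295 to 633 RPM within the heat stress group.

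The limits of 1.5-fold cut through a continuous distribution. mmu_piR_014891 was the member nearest to them, with 138 RPM in heat stress replicate 1 against a lower limit of 138 RPM, and 191 to 239 RPM in the other libraries. mmu_piR_020766, mmu_piR_033406 and mmu_piR_030086 were next, each 1.5-fold from the control mean in 1 heat stress library. On the other side, mmu_piR_038434, mmu_piR_033454, mmu_piR_008187 and mmu_piR_037999 missed the set by deviations just above 1.5-fold in heat stress replicate 3 or, for the last, replicate 1. mmu_piR_008187 is an example: it had 83.1, 75 and 75 RPM in the controls, 75.7 and 83.5 RPM in heat stress replicates 1 and 2, and 117 RPM in replicate 3, from 68 reads.

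The set also contains species whose groups stood apart within the limits. mmu_piR_039110 had 50.6, 58.5 and 51.7 RPM in the controls and 76.1, 73.9 and 73.8 RPM in heat stress. All heated libraries were above all controls, and the ratio of means was 1.39, the highest of the set. mmu_piR_018155 had 283, 247 and 283 RPM in the controls and 199.5, 226 and 196 RPM after heat stress, a ratio of 0.76 and the lowest of the set. Between these lay mmu_piR_020766, mmu_piR_008436 and mmu_piR_001233 at ratios of 1.31, 1.29 and 1.28, and mmu_piR_005911, mmu_piR_005796 and mmu_piR_030086 at 0.77, 0.78 and 0.78. The groups did not overlap for 20 of the 162 stable species, the heated libraries being higher at 7 and lower at 13. Over the 2219 species of the range they did not overlap for 1207, or 54.4%, being higher at 366 and lower at 841. As the rule used this contrast, nothing is read from that difference.

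The test across all species was limma on log2(RPM + 1) over 50786 species, with Benjamini-Hochberg adjusted p under 0.05 as the threshold. It called 19274 species changed, or 38.0%, and 34.2% of the 2219 species of the range, where 227 rose and 533 fell. With TMM scaling, described below, the balance in the range turned over: 361 rose and 194 fell (limma), and the median log2 fold change over the range was 0.07 in place of -0.54. All 162 stable species were tested and 0 were called by limma, 0 of them at an unadjusted p under 0.05 either, which the rule itself favours. edgeR and DESeq2 on the recovered reads also called 0 of the 162, beside 22.9% and 18.4% of all species tested. By limma on the deposited scale, the log2 fold changes of the 162 lay between -0.39 and 0.47 with standard errors of 0.39 to 0.47. Their median was -0.002 there, but 0.64 with edgeR and 0.39 with DESeq2, which apply their own scaling. The lowest limma adjusted p among the 162 was 0.383. The widest limma change, of mmu_piR_039110, was 0.47 with a standard error of 0.43. A missed threshold does not show that these species were unaffected.

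Steadiness within 1.5-fold was still wider than counting error. The chi-square per degree of freedom of a species' recovered reads around a common level, which is near 1 for counting error alone, had a median of 5.78 over the 6 libraries for stable species and of 46.3 for the other species of the range. It was at or below 1 for 4 of the 162 stable species and for 0 of the 2057 others. The lowest value, 0.49, belonged to mmu_piR_010003, whose 6 values differed by no more than counting error would give. The highest, 89.1, belonged to mmu_piR_017089. In the controls alone the median was 3.39 for stable species and 5.24 for the others. In heat stress alone it was 5.43 and 30.3. The rule limits the spread of the stable species in every library, so nothing is read from their difference from the others. The median coefficient of variation over 6 libraries was 16.1% for stable species, where counting error alone would give 7.43%. Whether this excess is technical or biological was not tested.

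The same measure in a library that the choice had not used gives a reading that the rule does not fix. When a control was left out and the rule applied to the other 5 libraries, 163 to 170 species were chosen, and 93.4%, 98.8% and 93.5% of them lay within 1.5-fold in the left-out control replicates 1, 2 and 3. All species of the range reached 90.1%, 90.3% and 85.2% there. When a heat stress library was left out, fewer of the chosen species held. Without heat stress replicate 1 the rule chose 421 species, and 162 of them, or 38.5%, lay within the limits in that library, against 19.6% of all species of the range. Without replicate 2 it chose 192, of which 84.4% held, against 49.9%. Without replicate 3 it chose 284, of which 57.0% held, against 26.9%. In each library left out, the chosen species held more often than the range as a whole, and in the heat stress libraries less often than the 99.2% to 100% that counting error allows. As each left-out value is 1 library, this comparison has no test.

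**Figure D4:**
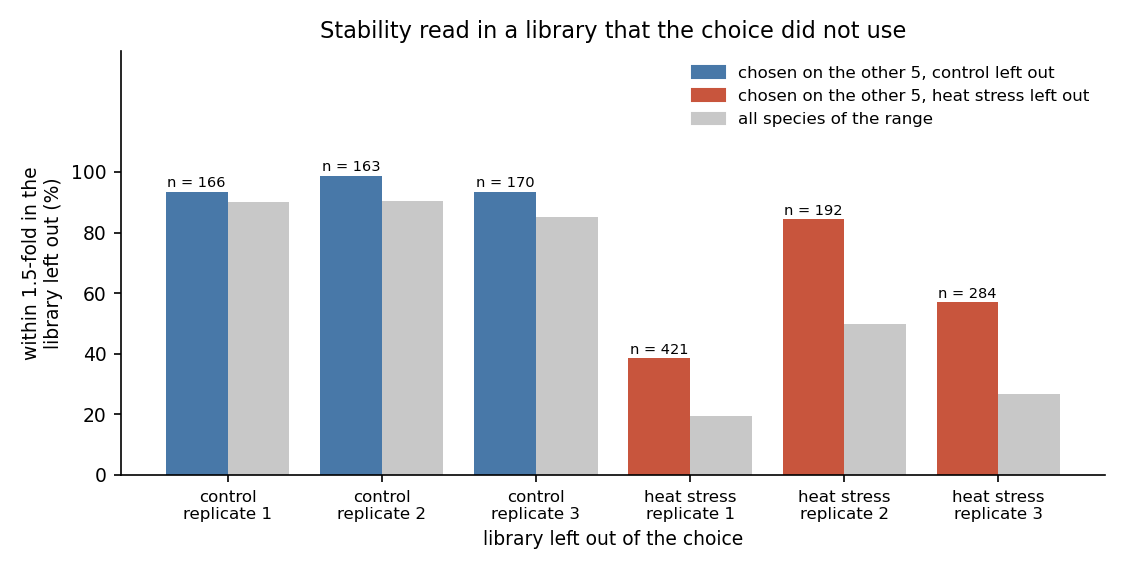
Percentage of species within 1.5-fold of the control mean in the library named on the horizontal axis, for species chosen on the other 5 libraries (blue where a control was left out, red where a heat stress library was left out; n is the number chosen) and for all species of the range (grey). The blue bars stand at 93.4% to 98.8% and the red bars at 38.5%, 84.4% and 57.0%.

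A choice on the controls and a single heat stress library carried over less well. Of 1019 species within the limits in the controls and heat stress replicate 2, 284, or 27.9%, held in replicate 1 and 421, or 41.3%, in replicate 3. Of 386 chosen on replicate 1, 73.6% held in replicate 2 and 49.7% in replicate 3. Of 536 chosen on replicate 3, 35.8% held in replicate 1 and 78.5% in replicate 2. The number of species called stable therefore depended strongly on which heated libraries were seen.

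As a scaling reference the set returned almost the deposited scale. Its 162 species held 2.32%, 2.30% and 2.33% of the reads in control replicates 1, 2 and 3 (95% Wilson intervals 2.30 to 2.33, 2.29 to 2.32 and 2.32 to 2.35) and 2.23%, 2.44% and 2.28% in heat stress replicates 1, 2 and 3 (2.21 to 2.25, 2.42 to 2.46 and 2.24 to 2.32). The intervals take each read as independent, so they cover read counting only and are too narrow for a comparison of libraries. The group means were 2.32% ± 0.0166 and 2.32% ± 0.109 (SD, n = 3). Over the same libraries all 2219 species of the range went from 29.8% ± 0.327 to 40.1% ± 4.09 of the reads. The geometric mean ratio of the stable species to their control mean was 0.94, 1.05 and 0.99 in heat stress replicates 1, 2 and 3, and the SD between species was 0.31, 0.23 and 0.34 on the log2 scale. Every ratio had to lie between the limits, so these factors could not have strayed far from 1.

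Factors from species chosen without the library in question were free of that constraint. They were 1.08 for heat stress replicate 2 and 1.01 for replicate 3, close to the values above, but 0.64 for replicate 1, below the lower limit of the rule. The left-out controls gave 0.99, 0.99 and 0.97. Replicate 1 is the library in which 224 of the 421 species chosen without it lay below the lower limit and 35 lay above the upper one.

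Other references gave other scales, and with them other stable species. TMM, which trims extreme species and assumes that most of the rest are unchanged, gave factors of 0.45, 0.81 and 0.77 for heat stress replicates 1, 2 and 3 relative to the controls. After division by these factors 228 species met the rule, and 2 of the 162 were among them. Median-of-ratios factors (0.53, 1.02 and 0.87) gave 214 stable species, of which 32 were in the set. Scaling to the mmu_piR_ reads (1.3, 1.15 and 1.38) gave 126, of which 58 were in the set. Scaling to the set itself, whose factors the rule holds near 1, gave 172, of which 153 were in it. With factors from species chosen without each library, which are 0.66, 1.1 and 1.03 relative to the controls, 198 species met the rule and 94 of them, or 58.0% of the 162, were in the set. The number of stable species thus stayed between 126 and 228 under these 5 scalings, while their identity changed.

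A common multiplier shows this without any reference. When all heat stress values were multiplied by 0.9, 1.1, 1.2 or 1.3 before the rule, 162, 157, 163 and 159 species met it, against 162 for the deposited values. Of these, 122, 122, 98 and 68 were in the set. Multiplied by 0.5 or 2, 75 and 68 species met the rule, with 1 and 0 from the set. The count was nearly level from 0.9 to 1.3, so the deposited scale was not singled out by the number of species that it made stable.

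**Figure D5:**
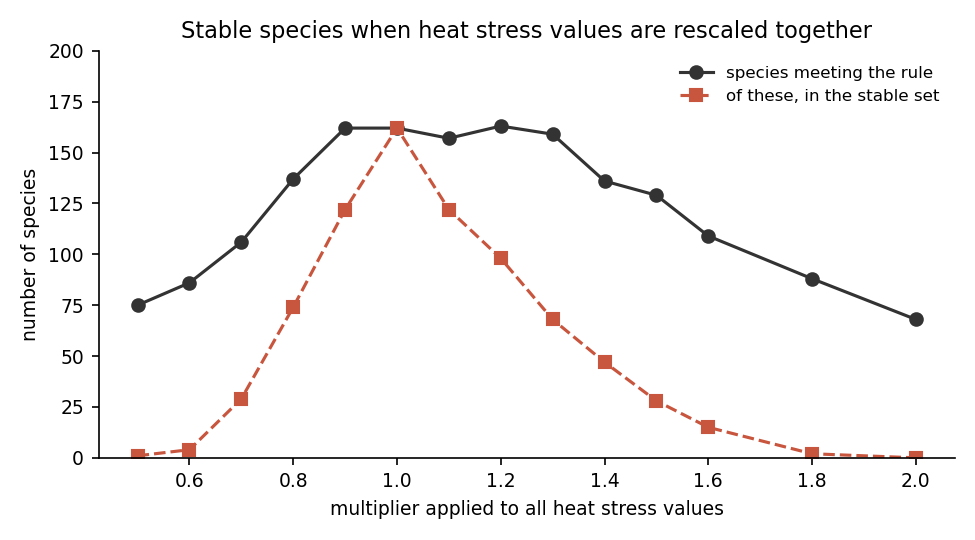
Number of mmu_piR_ species that met the rule (black circles) and number of these that belong to the 162 stable species (red squares) after all heat stress values were multiplied by the number on the horizontal axis. The black line is nearly level between 0.9 and 1.3, at 157 to 163 species, while the red line drops to 122 and 68 at these ends.

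In the test across all species, division by the set's factors gave 3324 rises and 16839 falls by limma, or 39.7% of 50786 species, against 3228 and 16046 on the deposited scale. The median log2 fold change over 17626 mmu_piR_ species was 0.03 on both scales. As the rule holds these factors near 1, nothing is read from the likeness. With factors from species chosen without each library limma called 3583 rises and 15264 falls, or 37.1%, and the mmu_piR_ median was 0.13. With TMM limma called 4271 rises and 7824 falls, or 23.8%, the mmu_piR_ median was 0.52, and all 162 stable species had log2 fold changes above 0, from 0.23 to 1.08 with a median of 0.61. The lowest adjusted p among them was then 0.0761 (limma), with 0 called and 12 at an unadjusted p under 0.05. mmu_piR_014621, the steadiest on the deposited scale, had a log2 fold change of 0.03 (SE 0.39) there and of 0.65 (SE 0.37) with TMM. Scaled to the mmu_piR_ reads, the median log2 fold change of the 162 was -0.35, and their median ratios to the control mean were 0.70, 0.93 and 0.70 in heat stress replicates 1, 2 and 3. Whether the set as a whole stood level, higher or lower after heat thus followed the reference, and no external standard was used here.

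Identifier numbers were set beside stability by simple counts only. Of 134 pairs of consecutive mmu_piR_ numbers among the 2219 species, 0 had both species stable and 15 had 1. With 7.30% of the range stable, pairs with both stable would be rare in any case, so nothing is read from these counts. No stable species had the same 6 values as another. When the species of the range were split into 4 groups of like size by identifier number, these held 48, 36, 38 and 40 stable species of 554 or 555 each. The files give no sequence, length or position, so neither shared sequence nor genomic clustering of the set was analysed here.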

How the data were processed

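Small RNA libraries of 3 control and 3 heat stress samples were analysed from the deposited values, 1 file per library. The deposited values are RPM, which the authors scaled so that each library sums to 1000000 over the listed species; per the file headers the column is called tpm. Dividing by the smallest value gave whole reads (within 0.001 of a read) for 100% of the values above 0 in each library, and these reads were used for counting error. No aligner, piRNA database or build is named in these sources, and total RNA was extracted with Trizol per the labels' protocols. The set and the lists were chosen with earlier results of these data known.

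The test across all species was limma 3.58.1 (R 4.3.3) on log2(RPM + 1), with trend and robust moderation, over species that reached 1 RPM in 3 or more libraries. edgeR 4.0.16 and DESeq2 1.42.0 on the recovered reads were alternatives. Expected numbers are products over libraries of Poisson probabilities with the control mean as the true level, computed with scipy 1.17.1, and ignore the error of that mean. Scaling factors were set to a geometric mean of 1 over the controls. The fits and the expected numbers were tested on simulated data. The depth, which was lowest in heat stress replicate 3, limits species of few reads: the stable species had a median of 61 reads and at least 22 there, against medians of 217 to 446.5 elsewhere.

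Named species were, among stable species, the 6 with the highest control mean, the 6 with the smallest and the 4 with the largest deviation in any library, and the 4 highest and 4 lowest by ratio of means, and the 4 species nearest outside the limits; species named for the edges of the abundance range were added after their values were seen. The common multiplier, scaling to the set and comparison of each group with its own mean were also chosen after seeing the data.

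Same-numbered libraries did not deviate together: the correlations of their deviations from group means were -0.02, 0.01 and 0.02, and the labels give the numbers no further meaning.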

Additional observations from a re-analysis of the deposited data

How the results depend on the processing

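The number of stable species was 46 with limits of 80% to 125% of the control mean, 460 with 2-fold, 87 from 100 RPM upward, 259 against the mean of all 6 libraries and 629 when each group was set against its own mean, of which 154 were in the set. It was 163 to 421 with 1 library left out, the high values coming without heat stress replicate 1 (421) and replicate 3 (284). Leaving out a heat stress library can only keep or raise the number, because the control mean stays the same. The share of chosen species that held in a left-out control was 87.9% with limits of 80% to 125%, against 95.2% ± 3.07 (SD, n = 3), and in a left-out heat stress library 52.2% to 72.9% over the 3 limits. The difference in the share of species within the limits was 45.6 to 60.5 points under the other limits and scaling to mmu_piR_ reads, and 50.8 to 65.8 points with 1 library left out.

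Calls over all species moved more. Rises numbered 1144 with no filter, 1649 with 10 RPM in 3 libraries and 6171 with edgeR. Falls numbered 8094 with a pseudocount of 0.1, 2426 with no filter, 3262 with 10 RPM in 3 libraries, 7824 with TMM, 5445 with edgeR and 4833 with DESeq2, against 4528 rises with DESeq2. With 1 library left out, rises numbered 1821 to 4025 and falls 6911 to 25487. After scaling to the set they numbered 1922 to 4137 and 8353 to 25012. The median log2 fold change of mmu_piR_ species was 0.52 with TMM and -0.24 with mmu_piR_ reads, and -0.05 to 0.19 with 1 library left out. The cause of these shifts was not tested.

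With the replicate block, limma called 3359 rises and 17838 falls, and 3559 and 18835 after scaling to the set. The numbers are no pairing by the labels. No stable species was called under any of these settings. Over all species tested, 38.0% were called in the main limma fit, 22.9% with edgeR and 18.4% with DESeq2. The rule holds every value of a stable species near its control mean, so nothing is read from the lack of calls. For the 26 named species, 155 of 156 ratios of means with 1 library left out moved by less than the spread between libraries. So did 26 of 26 after scaling to the set. Leaving out 1 of 3 libraries moves a group mean by less than that group's SD, and the rule holds the set's factors near 1. Nothing is therefore read from either of those counts. With TMM 26 of 26 moved upward by more than the spread, and scaled to mmu_piR_ reads 23 of 26 moved downward by more. Each scaling divides all species of a library by the same factor, so the factors set these directions. The counts are therefore no separate evidence from each species.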
